A study of Mus musculus with 12 samples.

Results

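PYGB encodes the brain form of glycogen phosphorylase, the enzyme that cuts glucose-1-phosphate off glycogen, and it is also made in tissues outside the brain. In T-REx-293 cells that express RbFox1, 31 eCLIP peaks lay on the plus strand of the PYGB interval, chromosome 20 from 25248069 to 25298014 (hg38), out of 24831 human peaks in all. They fell into 3 separate groups, and 23 of the 31 formed a single dense run from 25285247 to 25286907. The gene was chosen on these same values, that is on where its peaks lie and how enriched they are, so all values below are a description and no test was made of them.

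RbFox proteins carry an RNA recognition motif that binds (U)GCAUG. In the nucleus they bind mostly introns and steer the inclusion or skipping of nearby exons, and in the cytoplasm some forms bind the untranslated end of messenger RNAs and act on their stability. eCLIP reads such contacts out by ultraviolet crosslinking, immunoprecipitation and sequencing of the RNA fragments that stay bound. PYGB has a pair of close relatives, PYGL for the liver form of the enzyme and PYGM for the muscle form.

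The cells were T-REx-293, a human embryonic kidney line in which doxycycline switches on RbFox1, and the clone used here, 77-5, also carries a mouse Ntrk2 (TrkB) minigene on a bacterial artificial chromosome. Human peaks came from 2 libraries of 77-5 cells with doxycycline (+Dox) and 2 libraries of the same clone with none (No Dox), so both sides carry the minigene and the inducible RbFox1 gene. The labels give the doxycycline as 0.5 mg/ml for 48 h, while the study's figure legends give the same figure in μg/ml. A line with the minigene's Cluster 1 and Cluster 2 deleted (32-1, 2 libraries with doxycycline) and 6 input libraries whose labels do not name the line they came from have no values on PYGB in the lists used here.

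Each peak has the authors' log2 fold enrichment, the log2 ratio of its reads in +Dox over No Dox after scaling to the total of each library, and the authors' −log10 p for that ratio. The values are merged over the 2 replicates. The list gives none for a single library and holds no reads, so the depth behind each peak is unknown and no difference below can be set against the spread between replicates. The study reported RbFox1 in this clone only with doxycycline and, on the minigene, took the No Dox signal as background. The ratio is not scaled to the amount of PYGB RNA. Binding of RbFox1 to each PYGB RNA and more PYGB RNA per cell therefore cannot be told apart. Only enriched peaks are listed, with a lowest log2 fold enrichment and a lowest −log10 p of 3, so a stretch of PYGB with no listed peak may still hold weaker ones.

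The 31 peaks covered 1985 nt, 3.97% of the 49946 nt of the interval, and all lay between 11.8 and 38.8 kb from its 5′ border. The first 5 peaks, called the upstream group here, spanned 438 nt from 25259842 to 25260279. After 23980 nt with no listed peak came 3 peaks that abut each other over 220 nt, from 25284260 to 25284479, called the middle group. The run started 767 nt further on. In the 11107 nt from the end of the run to the 3′ border of the interval there was no listed peak.

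The run took up 3.33% of the length of the interval and held 74.2% of its peaks and 70.7% of its peak bases. No peak of the list lay on the opposite strand of the interval. The nearest listed peak on the 5′ side was 18292 nt away, on the plus strand, with a log2 fold enrichment of 3.66. The nearest on the 3′ side was 2276 nt away on the minus strand, with 3.21, and the next peak of the plus strand lay 378239 nt beyond the interval. PYGB thus stood alone on its strand on the 3′ side and held 5.76% of the 538 plus-strand peaks of chromosome 20. The exons, introns and untranslated ends of PYGB, the genes that overlap or neighbour it and the (U)GCAUG motifs under its peaks were not analysed here.

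**Figure D1:**
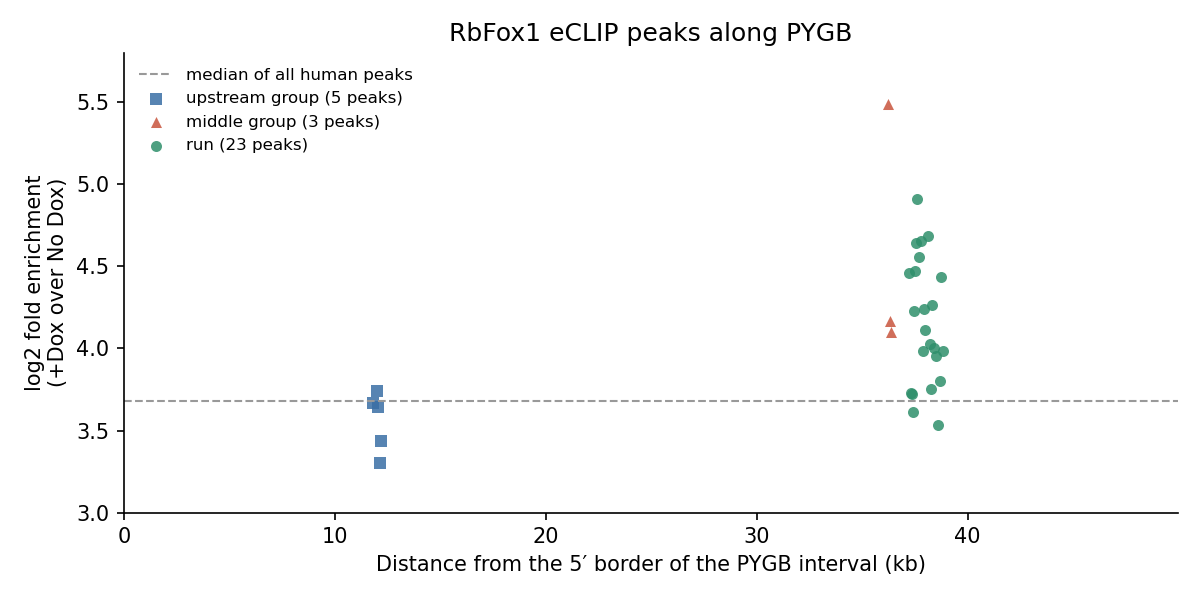
Each point is 1 of the 31 PYGB peaks, placed by the distance of its middle from the 5′ border of the interval (x axis, kb) and by its log2 fold enrichment of +Dox over No Dox (y axis, starting at 3). Squares are the upstream group, triangles the middle group and circles the run, and the dashed line is the median of all human peaks, 3.68. The 5 upstream peaks lie between 3.30 and 3.74, on both sides of that line, and the highest point, 5.49, belongs to the middle group and not to the run.

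In the upstream group the enrichment was modest. Its 5 peaks had, from 5′ to 3′, log2 fold enrichments of 3.67, 3.74, 3.65, 3.30 and 3.44, which is 9.85-fold to 13.4-fold. Of these 5, 4 lay under the median of the whole list, 3.68. The −log10 p of the same 5 peaks was 8.58, 10.9, 9.41, 8.25 and 5.62, and 1 of them, the second, exceeded the list's median of 10.2. The group's median log2 fold enrichment of 3.65 ranked 269 among the 468 groups of human peaks that also hold 5 peaks, where a group is a set of peaks of 1 strand with at most 500 nt between neighbours. By its median −log10 p of 8.58 it ranked 342 of the 468.

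The middle group held the most enriched peak of the gene. Its first peak, 25284260 to 25284351, had a log2 fold enrichment of 5.49, a 45.0-fold ratio, and a −log10 p of 44.0. This enrichment was higher than that of 98.8% of all human peaks, with 303 peaks of the list above it. The other two peaks, which abut it in turn, had 4.17 and 4.10 with −log10 p of 24.3 and 31.8, so the high value was confined to the 92 nt of the first of the 3 peaks. Among the 1148 groups of 3 peaks the middle group ranked 163 by its median log2 fold enrichment, 18 by its highest peak and 45 by its median −log10 p. All 3 of its peaks exceeded all 5 of the upstream group in both measures.

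The run at 25285247 to 25286907 had 23 peaks in 1661 nt, and the peaks covered 84.5% of that length. Its log2 fold enrichment ran from 3.53 to 4.91 with a median of 4.11 (quartiles 3.88 and 4.47), which is 11.6-fold to 30.1-fold with a median of 17.3-fold. The −log10 p ran from 11.4 to 80.1 with a median of 31.2. All 23 peaks lay above the list's median −log10 p, and 19 lay above its upper quartile of 19.2. In enrichment, 11 of the 23 peaks lay above the upper quartile of 4.14 and 2 below the median. Since the gene was chosen on these values, nothing is read from these counts.

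Most peaks of the run touch a neighbour. Joining peaks with no base between them left 8 regions, the longest of 540 nt with 9 peaks and the next of 413 nt with 6 peaks. The widest gap between neighbours in the run was 72 nt. Peak widths ran from 10 to 136 nt with a median of 49 nt, against a median of 82 nt in the whole list, so the run is cut into many short pieces. The number of peaks is therefore a count of pieces as listed, and whether they are separate binding sites was not tested.

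Along the run, the first peak (25285247 to 25285336) stood alone with a log2 fold enrichment of 4.46 and a −log10 p of 70.4. The 540 nt region followed after a gap of 22 nt, from 25285359 to 25285898. Its 9 peaks had log2 fold enrichments of 3.73, 3.72, 3.61, 4.23, 4.47, 4.64, 4.91, 4.56 and 4.65 from 5′ to 3′. The first 3 lay below the run's median of 4.11 and the other 6 above it. The highest of the run, 4.91, was at 25285652 to 25285671, a piece of 20 nt. Next to it lay the piece with the highest −log10 p of the gene, 80.1, at 25285672 to 25285807, which was also the widest with 136 nt.

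Past this region the enrichment was more even. A piece of 10 nt at 25285938 had 3.99, the narrowest of the run, and 2 abutting peaks from 25285994 to 25286095 had 4.24 and 4.11. The 413 nt region from 25286168 to 25286580 then opened with 4.68 and went on with 4.03, 3.76, 4.26, 4.004 and 3.95. Its −log10 p was highest at the fourth piece, 25286345 to 25286450, with 71.3. The lowest enrichment of the run, 3.53, followed at 25286615 to 25286707, with a −log10 p of 34.4. The last 3 peaks had 3.80, 4.43 and 3.99, the last ending at 25286907.

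With the run cut into 3 equal lengths, the median log2 fold enrichment was 4.46 over the 9 peaks of the first, 4.11 over the 7 of the second and 3.99 over the 7 of the third. The ranges overlapped widely, at 3.61 to 4.91, 3.76 to 4.68 and 3.53 to 4.43. Across the 23 peaks the position along the run and the enrichment had a Pearson's r of -0.243 and a Spearman's rho of -0.152. These describe neighbouring pieces of 1 RNA from the same libraries, and no slope is read from them.

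**Figure D2:**
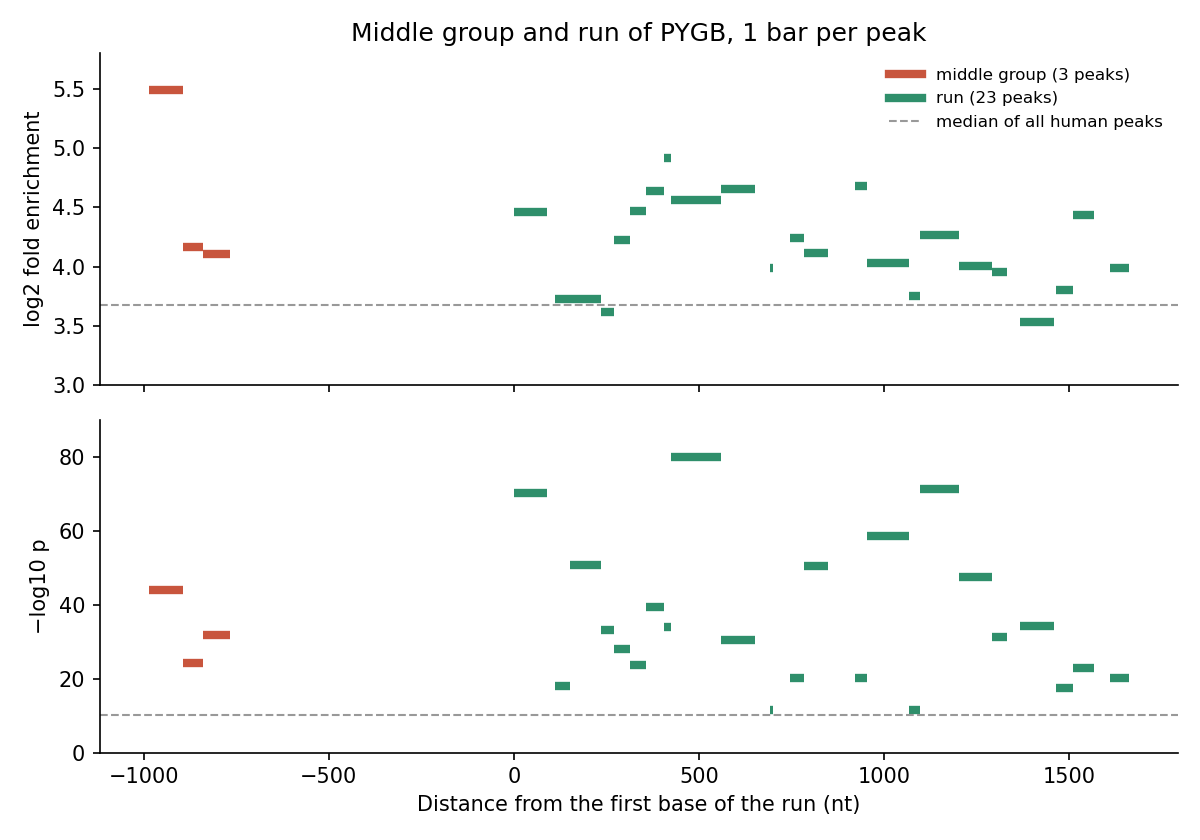
Each bar is 1 peak of the middle group or the run, drawn to scale from its first to its last base (x axis, nt from the first base of the run), with its log2 fold enrichment in the upper panel (y axis starting at 3) and its −log10 p in the lower panel. Dashed lines are the medians of all human peaks, 3.68 and 10.2. In the upper panel the bars climb from 3.61 to 4.91 within the 540 nt region, and in the lower panel all 23 bars of the run lie above the dashed line.

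The 2 measures picked out different peaks. Within the run, −log10 p followed the width of the peak (Pearson's r 0.834, Spearman's rho 0.743 across 23 peaks), while enrichment did not follow width (r 0.0437, rho 0.0766). The relation of enrichment to −log10 p was weak (r 0.205, rho 0.203). These pieces share their libraries and RNA, and the reads in each are not listed, so the part of read number in these relations was not tested. Of the 3 run peaks with the highest −log10 p, from 70.4 to 80.1, none was the most enriched piece of the run, which had a −log10 p of 33.9.

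Set against the rest of the gene, the median log2 fold enrichment was 4.11 in the 23 peaks of the run and 3.70 in the other 8, a difference of 0.41. The other 8 are of 2 unlike kinds, since the highest value of the upstream group was 3.74 and the lowest of the middle group 4.10. Of the 23 run peaks, 19 were above the highest peak of the upstream group. The median of the run lay just below that of the 3 peaks of the middle group, 4.17. Their ranges overlapped, at 3.53 to 4.91 in the run and 4.10 to 5.49 in the middle group. The middle group's mean weighted by width was 4.70. Weighted by width, the mean was 4.17 in the run and 3.998 in the rest together, a difference of 0.17, so the size of the contrast depends on the summary used.

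The run and the upstream group also differed in −log10 p where their enrichment was alike. Of the run peaks, 4 had a log2 fold enrichment inside the range of the upstream group, 3.30 to 3.74. Their −log10 p was 18.1, 50.7, 33.2 and 34.4, against at most 10.9 in the upstream group. Their widths, 35 to 93 nt, overlapped the 54 to 99 nt of the upstream peaks. At a given ratio a test of read counts returns a higher −log10 p with more reads, and the reads of these peaks were not tested. The lowest −log10 p of the run, 11.4 for a piece of 29 nt, was still above all 5 upstream peaks.

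**Figure D3:**
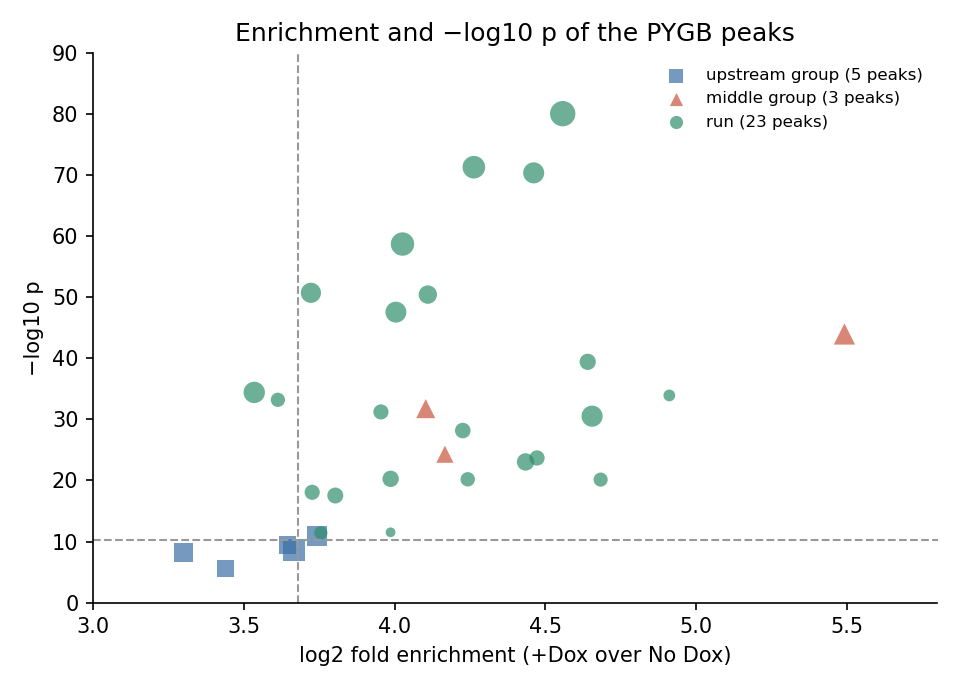
Each point is 1 PYGB peak with its log2 fold enrichment (x axis, starting at 3) and its −log10 p (y axis), squares for the upstream group, triangles for the middle group and circles for the run, with larger points for wider peaks. Dashed lines are the medians of all human peaks, 3.68 and 10.2. The 5 squares sit in the lower left, at most 3.74 and 10.9, and the highest circles, from 70.4 to 80.1, are among the widest.

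Raising the bar to a log2 fold enrichment of 4 or more, with p no higher than 1e-05, left 17 of the 31 PYGB peaks, 54.8%, while 29.0% of all human peaks pass. Since the gene was chosen on these values, nothing is read from that excess. In the run 14 of 23 passed, in the middle group 3 of 3 and in the upstream group 0 of 5. In the run the values on both sides of 4 lie close together, with 3.95, 3.99 and 3.99 just under and 4.004, 4.03 and 4.11 just over it. On the minigene, 7 peaks were listed from the same +Dox and No Dox libraries, with log2 fold enrichments from 3.14 to 4.13. Of the PYGB peaks, 13 were above 4.13. In −log10 p the minigene peaks ran from 12.4 to 400, and the highest PYGB peak had 80.1. PYGB was chosen on its values, and the minigene is a different RNA made from a synthetic promoter. No order of binding strength is therefore read from these values.

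Among the 9787 groups of human peaks, the run ranked 3 by its number of peaks, a place it shared with the other 3 groups of 23. Of the 189 groups with at least 10 peaks, 87 had a higher median log2 fold enrichment and 86 a higher median −log10 p. The median over those 189 groups was 4.07, next to the run's 4.11. With the stricter limits the run, then of 14 peaks, stood lower, at rank 36 of 40 groups of at least 10 peaks, with a median of 4.45 against 4.85 over those groups. These limits keep only groups with at least 10 highly enriched peaks, so nothing is read from the lower rank.

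Of the other groups, 4 held 22 or 23 peaks. The nearest to the run in median log2 fold enrichment was one of 22 peaks on the minus strand of chromosome 10, from 71816421 to 71817373, with 3.92. It was followed by a group of 23 on the plus strand of chromosome 12, from 110346320 to 110347843, with 3.84, and by another of 23 on the plus strand of chromosome 10, from 74112146 to 74113945, with 4.71. The fourth, on the plus strand of chromosome 22 from 40966790 to 40967733, had 5.38. The run lay between the lower and the higher pair. The lower pair had a median −log10 p of 400, the highest value the list holds, against 31.2 in the run, and the higher pair had 53.5 and 52.8. A median equal to the list's highest value means that 400 recurs, so it may be a ceiling and not a measured value. Groups with a like number of peaks thus differed widely in −log10 p, by an amount that such a ceiling would hide.

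**Figure D4:**
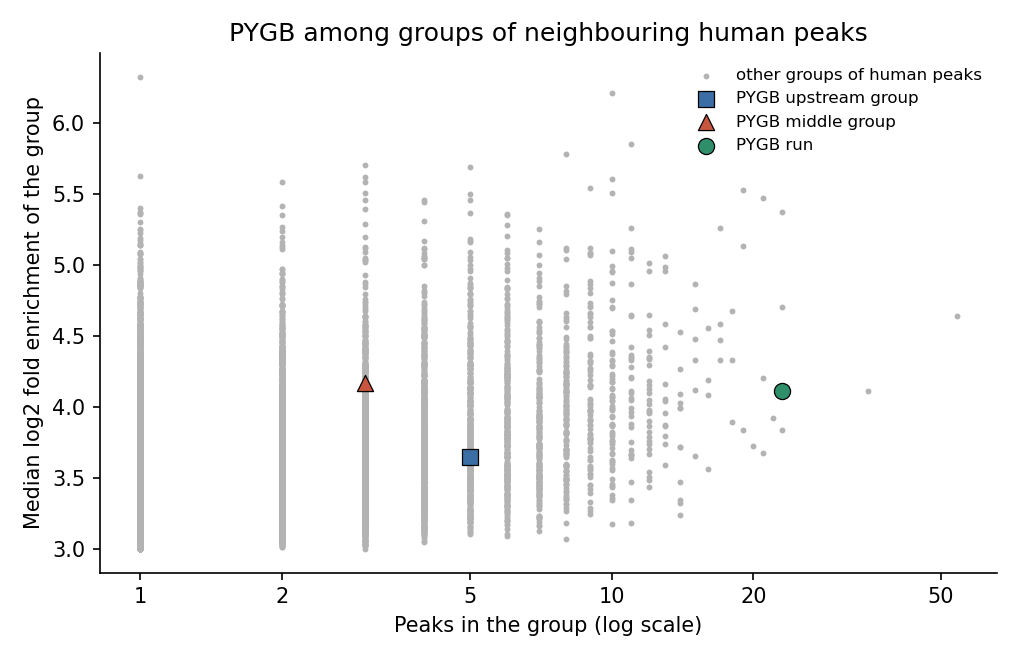
Each point is 1 of 9787 groups of human peaks with at most 500 nt between neighbours, placed by its number of peaks (x axis, log scale) and its median log2 fold enrichment (y axis, starting near 3), with the PYGB groups in colour. The run, at 23 peaks and 4.11, lies far to the right, with groups of at least 10 peaks both above and below it, and the upstream and middle groups lie within the spread of groups with 5 and 3 peaks.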

How the data were processed

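Peak lists from eCLIP of 77-5 cells (2 +Dox and 2 No Dox libraries) were used as deposited. The authors moved molecular identifiers to read names and removed PCR duplicates with umi_tools, trimmed with cutadapt, discarded reads of repeats and rRNA, mapped with STAR to hg38 and the minigene and called peaks with CLIPper. The authors computed a −log10 p-value (chi-square test with Yates' correction, or Fisher's test for low counts) and a log2 fold enrichment per peak from reads scaled to library totals. Replicates were merged by the authors, under the name IDR in the deposit, with settings not given in the sources used here. Discarding repeat reads and splitting peaks can change the count of peaks.

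Starts were converted to count from 1. Peaks overlapping the PYGB interval on the plus strand were taken, and peaks of 1 strand at most 500 nt apart were grouped, with Python 3.11.15, pandas 2.3.3, numpy 2.4.6, scipy 1.17.1 and matplotlib 3.10.9. The grouping was tested on simulated peaks of 1 strand and 1 chromosome without overlaps. Its separation by strand and chromosome was not tested. The gene, run, lists and rules were chosen with earlier results of these data known. The rule for named items was every PYGB peak, glycogen genes with peaks, neighbouring genes, and the 3 groups most like the run in number of peaks (within 1) and median enrichment. The fourth such group was added after its values were seen. Without a human annotation or genome the glycogen genes, neighbouring genes, gene regions and motifs were not analysed here, and groups are given by position.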

Additional observations from a re-analysis of the deposited data

How the results depend on the processing

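No paired analysis was possible because the list holds 1 value per peak after merging of replicates. For the same reason no replicate could be left out. The 31 PYGB peaks all lay wholly inside the interval. They fell to 17 under the stricter limits (log2 fold enrichment 4 or more, p no higher than 1e-05), and to 12 regions after abutting peaks were joined, both by construction. The run stayed above the rest of the gene in 8 of 9 alternatives, and its median lay below that of the middle group taken alone. These alternatives reuse the same peaks and are not separate checks. With 100 nt the run and the rest hold the same peaks as before. With 1000 nt, as with the upstream group alone, the rest is the upstream peaks only. The difference of 0.41 was 0.28 under the stricter limits (14 against 3 peaks). The 3 peaks are the middle group, since no upstream peak passed. The limits removed the run peaks below 4 and no peak of the middle group. Without them the same contrast was -0.057, so the sign of the 0.28 came with the limits. The difference was 0.17 with means weighted by width, unchanged with a distance of 100 nt and 0.49 with 1000 nt, which joins the middle group to the run. Chosen after seeing the data, it was 0.44 without the most enriched peak of the rest, 0.47 against the upstream group alone, -0.057 against the middle group alone, 0.45 with abutting peaks joined and unchanged for peaks of at least 40 nt. By number of peaks the run ranked 2 with 100 nt and 4 with 1000 nt as the distance, and under the stricter limits it ranked 14 with 14 peaks. By median enrichment among groups of at least 10 peaks, its rank of 88 of 189 was 63 of 118 with 100 nt, 97 of 223 with 1000 nt and 36 of 40 under the stricter limits, and by median −log10 p its rank of 87 was 69, 94 and 28. The stricter limits pick peaks on enrichment and p, so nothing is read from the ranks under them. The alternatives for gene regions, motifs and glycogen genes were not run, for lack of a human annotation or genome here. The unknown depth limits all values.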
